A study of Mus musculus with 4 samples.

Results

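The genes described here are 34 genes of sterol and fatty acid synthesis, taken by their symbols from a table of 36088 genes measured in male germ cells. They comprise 18 enzymes that build cholesterol from acetyl-CoA, 9 enzymes of fatty acid synthesis, elongation and desaturation, 5 regulators of both routes and 2 genes of sterol transport. Each of the 34 symbols matched 1 gene of the table, and all passed a filter that kept genes whose TPM averaged 1 or more (TPM is a transcript level corrected for transcript length and scaled to the library total). RNA was sequenced from wild-type mouse germ cells that had been sorted from fetal testes held in culture. The cultures carried either DMSO, the solvent control, or CBR-5884, named in the design text as blocking serine metabolism and known to act on Phgdh, which starts serine synthesis from a glycolytic intermediate. The sample titles give day 14 for all samples, and the series asks what serine metabolism contributes to male germ cell differentiation. Each condition has 2 libraries, described as biological replicates. The sources used here give neither the dose nor the sorting marker, nor how testes were shared among cultures. The p-values below thus rest on the spread between these libraries only. For each gene, the fit draws that spread toward the spread of other genes of similar level.

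Cholesterol is made from acetyl-CoA through mevalonate and farnesyl diphosphate, which condenses to squalene and is then closed and trimmed to the sterol rings. Fatty acids start from the same acetyl-CoA, which is carboxylated and extended by fatty acid synthase. Transcription of both routes is driven by the membrane-bound factors SREBP-1 and SREBP-2 (genes Srebf1 and Srebf2), which Scap escorts to the Golgi when membrane sterol is low and which Insig proteins hold back in the endoplasmic reticulum when it is high. SREBP-2 acts mainly on sterol genes and SREBP-1c mainly on fatty acid genes, usually together with NF-Y and Sp1 bound nearby. In the testis, germ cells make sterols themselves, and intermediates of the late pathway build up there as meiosis-activating sterols.

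To show what the promoters of these genes hold, the 250 bases before the start site were read from the RefSeq table (build GRCm38.p6). It had 27 of the 34 genes. RefSeq starts can differ from those of the GENCODE M21 annotation. The Lss and Insig1 windows reach past the GENCODE gene starts (76531588 and 28071363). The Hmgcs1 window ends before its GENCODE start (119690379), and a stretch just after the RefSeq start was not found in a GENCODE transcript of Hmgcs1. The sequences below, 5′ to 3′ in the direction of the gene, are 4 sterol pathway genes with non-overlapping groups (Hmgcs1, Mvk, Lss and Insig1) and 1 fatty acid gene with closely matched groups (Fasn). Capitals mark every match, on either strand, to TCACNCCAC (the core of the sterol regulatory element), CCAAT (bound by NF-Y) or GGGCGG (bound by Sp1). Hmgcs1 lies at chr13:119690101-119690350, Mvk at chr5:114444019-114444268, Lss at chr10:76531355-76531604 and Insig1 at chr5:28071162-28071411, all on the plus strand, and Fasn at chr11:120824548-120824797 on the minus strand.
Hmgcs1: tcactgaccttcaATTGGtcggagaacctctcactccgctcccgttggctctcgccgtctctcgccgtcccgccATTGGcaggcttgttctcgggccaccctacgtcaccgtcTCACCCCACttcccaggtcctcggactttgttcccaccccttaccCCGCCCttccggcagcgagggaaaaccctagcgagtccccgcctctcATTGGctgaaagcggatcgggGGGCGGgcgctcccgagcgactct
Mvk: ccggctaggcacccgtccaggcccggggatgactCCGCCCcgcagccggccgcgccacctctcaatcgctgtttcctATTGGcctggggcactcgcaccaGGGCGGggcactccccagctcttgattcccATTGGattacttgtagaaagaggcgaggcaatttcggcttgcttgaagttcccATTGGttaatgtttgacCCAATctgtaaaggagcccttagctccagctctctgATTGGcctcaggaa
Lss: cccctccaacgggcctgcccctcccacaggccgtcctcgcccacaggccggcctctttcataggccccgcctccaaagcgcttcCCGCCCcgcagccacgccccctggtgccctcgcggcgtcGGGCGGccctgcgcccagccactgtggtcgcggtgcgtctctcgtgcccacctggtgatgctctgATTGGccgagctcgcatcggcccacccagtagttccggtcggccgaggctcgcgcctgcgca
Insig1: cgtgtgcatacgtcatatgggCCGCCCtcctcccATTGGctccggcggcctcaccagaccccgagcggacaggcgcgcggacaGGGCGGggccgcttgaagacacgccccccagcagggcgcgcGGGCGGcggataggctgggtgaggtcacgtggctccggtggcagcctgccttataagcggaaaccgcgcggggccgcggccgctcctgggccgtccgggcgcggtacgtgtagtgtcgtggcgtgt
Fasn: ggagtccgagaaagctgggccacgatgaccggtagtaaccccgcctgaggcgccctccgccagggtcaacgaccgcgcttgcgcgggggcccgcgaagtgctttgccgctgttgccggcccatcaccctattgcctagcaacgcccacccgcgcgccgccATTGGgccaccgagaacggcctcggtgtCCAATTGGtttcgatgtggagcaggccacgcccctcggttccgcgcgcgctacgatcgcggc

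The sterol element core occurred in 1 of the 27 members, in Hmgcs1, where it starts 137 bases before the start site between a pair of CCAAT matches. It occurred in 1.22% of the 27025 genes with a promoter in the table. CCAAT was found in 21 of the 27 members, 77.8%, against 37.5% of all genes in the table and 41.5% of those tested here. By branch, 14 of 15 sterol enzymes held it, Acat2 being the exception, and 2 of 6 fatty acid enzymes did. Mvk held 5 matches, 14 to 173 bases before its start. In Fasn 2 of its 3 matches overlap as a palindrome. GGGCGG was found in 23 of the 27 members, 85.2%, against 35.4% of all genes and 63.8% of tested genes, with 14 of 15 sterol and 3 of 6 fatty acid enzymes. Lss held 1 CCAAT and 2 GGGCGG matches and Insig1 held 1 and 3. A gene with several start sites was counted once if any window matched. These are matches of letters, which do not show binding.

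Among the libraries, the deposited TPM summed to 966761 to 1002976, and 22100 to 22988 genes had a value above 0. Relative depth, read from the steps between low values, was 1.0 and 0.94 for DMSO libraries 2 and 4. For CBR-5884 libraries 2 and 4 it was 1.171 and 1.078. Low values were whole multiples of a gene's lowest value in only 26.9% of cases, so these depths are uncertain. The numbers 2 and 4 are those of the library names in the table. Which labelled replicate each stands for is open. The 6 germ cell markers, among them Ddx4 and Dazl, summed to 2099 to 2152 TPM. Of the 9 Sertoli cell markers 7 had a mean of at least 1 TPM and Rhox5 was listed at 0. Their sum was 259 and 151 TPM in DMSO libraries 2 and 4, and 218 and 179 TPM in CBR-5884 libraries 2 and 4. The 6 markers of steroid-making Leydig cells, which also run sterol synthesis, summed to 7.0 TPM or less. Peritubular and stromal markers (6) summed to 42.7 to 47.0 TPM, endothelial markers (4) to 9.23 to 10.4 TPM and macrophage markers (6) to 13.3 to 30.6 TPM.

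Genes of both branches were abundant in these libraries of sorted germ cells, which also held transcripts of other cell types. The 34 members had a median mean level of 107 TPM, against 21.4 TPM over the 14920 tested genes. By branch the median was 117 TPM for the sterol enzymes and 102 TPM for the fatty acid enzymes. Fdps, which makes farnesyl diphosphate, was the most abundant, with 369 and 326 TPM in DMSO libraries 2 and 4 and 452 and 377 TPM in CBR-5884 libraries 2 and 4. It was followed by Acly, Srebf2, Insig1, Hmgcs1 and Fasn. Insig1 and Hmgcs1 had overall means of 238 and 232 TPM, closer to each other than their own spread over the libraries. At the low end stood Pmvk, the phosphomevalonate kinase, with 10.5 to 12.8 TPM, then Ebp and Tm7sf2. Ebp, the X-linked isomerase that moves the sterol double bond, had 4.72 and 3.09 TPM with DMSO and 7.59 and 2.12 TPM with CBR-5884. Tm7sf2, one of the sterol C14 reductases, had 3.65 and 4.65 TPM with DMSO and 4.47 and 3.43 TPM with CBR-5884. With a mean of 4.05 TPM, Tm7sf2 lay over an order of magnitude below its listed neighbours Cyp51 (109 TPM) and Msmo1 (160 TPM). Other C14 reductases are not among the members, so Tm7sf2 alone does not give the level of that step. The levels of Ebp and Tm7sf2 overlapped.

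**Figure D1:**
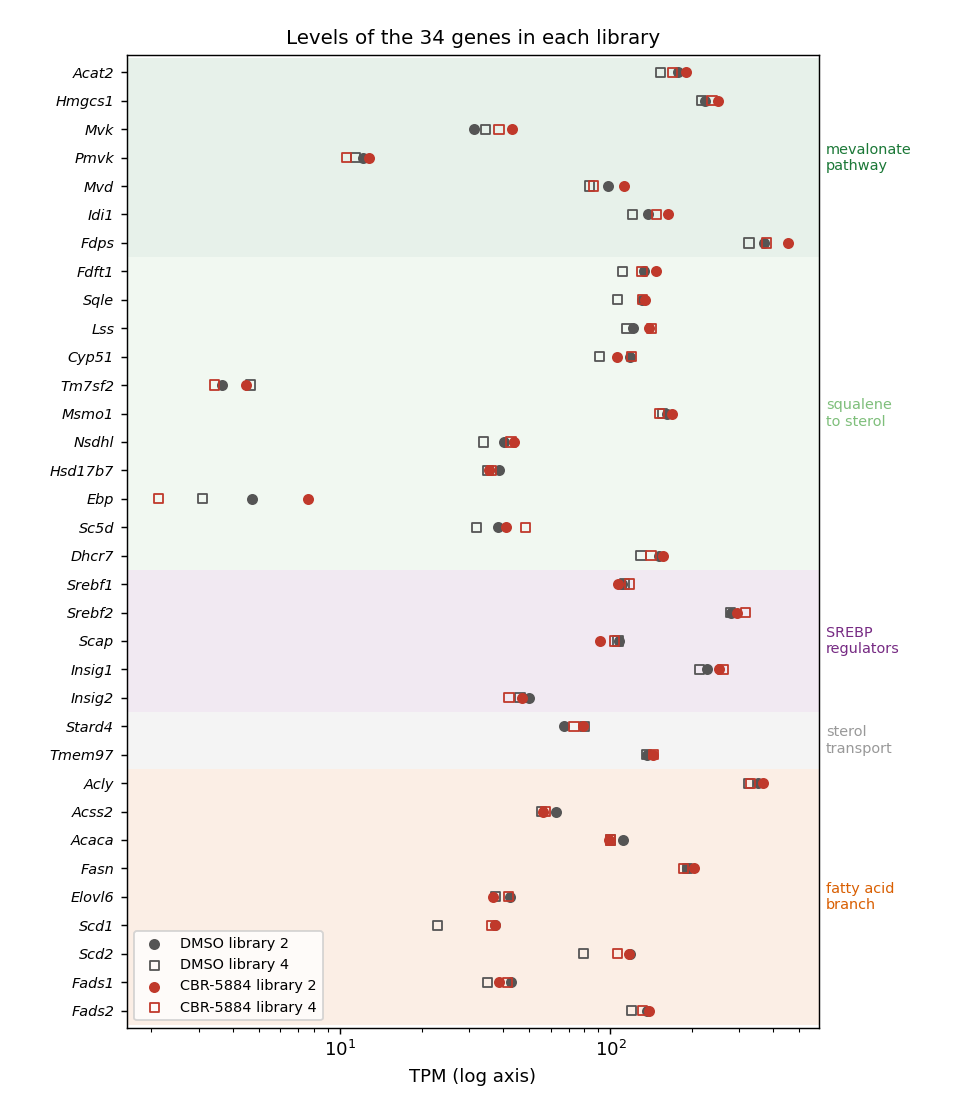
TPM of the 34 genes on a log axis, 1 row per gene in pathway order; filled circles are libraries numbered 2 and open squares libraries numbered 4, grey for DMSO and red for CBR-5884. Fdps, Acly and Srebf2 are the most abundant, Pmvk, Ebp and Tm7sf2 the least, and DMSO library 4 is often the lowest point among the sterol enzymes.

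With CBR-5884 the sterol enzymes lay slightly higher than with DMSO and the fatty acid enzymes were close, but no member passed the test. Of the 34 members, 0 were called higher and 0 lower (limma, Benjamini-Hochberg adjusted p under 0.05 over 14920 genes; every member had an adjusted p of 0.998). The background was the same, with percentages called of 0.0 in both directions. At an unadjusted p under 0.05, 5 members were higher (Mvk, Idi1, Lss, Sc5d and Insig1) and 0 lower, where the background was 1.51% of tested genes higher and 2.15% lower. The groups did not overlap for 11 members higher and 2 lower with CBR-5884, where the background was 13.6% and 17.7%. The sterol enzymes gave 8 of the 11, and the others were Srebf2, Insig1 and Tmem97. The log2 fold change, computed on log2(TPM + 1), was above 0 for 15 of 18 sterol enzymes and 6 of 9 fatty acid enzymes, where 47.2% of tested genes lay above 0 (43.8 to 54.1% over the alternative scalings of the libraries). Its median was 0.13 for the sterol enzymes and 0.05 for the fatty acid enzymes, against −0.01 over all tested genes. In a bulk sample, fewer cells of a type and less RNA per cell cannot be told apart. In GENCODE M21 (GRCm38, 1-based) these 5 genes with the smallest p are protein-coding genes spread over 4 chromosomes, with Mvk at chr5:114444269-114460591, Insig1 at chr5:28071363-28078662, Idi1 at chr13:8885501-8892451, Lss at chr10:76531588-76557138 and Sc5d at chr9:42251595-42264256.

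**Figure D2:**
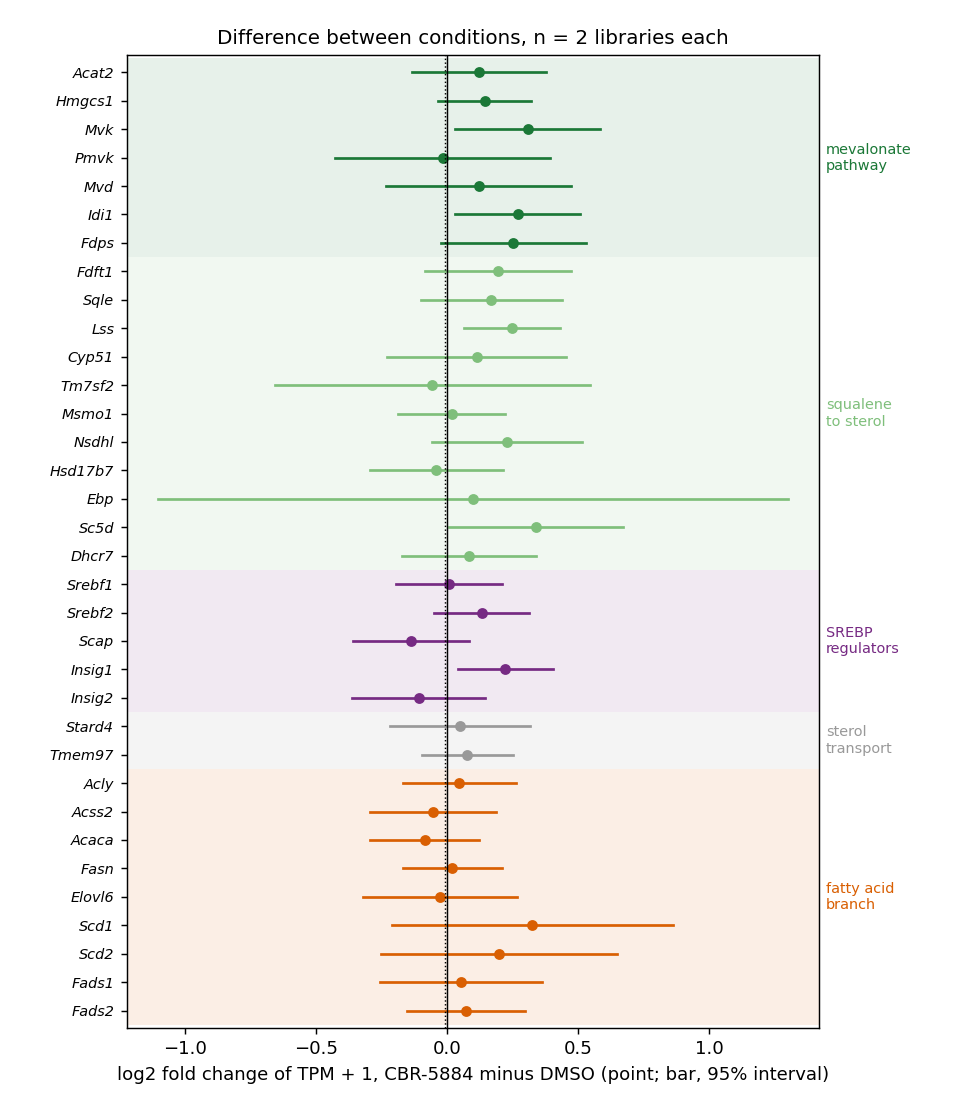
Log2 fold change of TPM + 1 (CBR-5884 minus DMSO, n = 2 libraries each) for each gene, with the 95% interval from limma as a bar; the dotted line is the median of all tested genes, −0.01. The intervals of Mvk, Idi1, Lss, Sc5d and Insig1 lie above 0 before adjustment for multiple tests. Those of all other members, the remaining sterol enzymes and all fatty acid enzymes among them, include 0.

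In the mevalonate part, 6 of the 7 enzymes had a positive log2 fold change, with a median of 0.14. Acat2, the cytosolic thiolase that joins 2 acetyl-CoA, had 178 and 153 TPM in DMSO libraries 2 and 4 and 191 and 169 TPM in CBR-5884 libraries 2 and 4, with overlapping groups. Hmgcs1, which adds a further acetyl-CoA, had 224 and 217 TPM against 249 and 238 TPM. Both CBR-5884 values lay above both DMSO values, and the difference was 0.14 on the log2 scale (95% interval −0.03 to 0.32). Mvk, the mevalonate kinase, had 31.2 and 34.5 TPM with DMSO and 43.1 and 38.7 TPM with CBR-5884, a log2 fold change of 0.31 (SE 0.11, interval 0.03 to 0.58). Its groups did not overlap, and here the lowest library was DMSO library 2. Pmvk and Mvd, the following kinase and decarboxylase, had overlapping groups. Mvd had 98.1 and 83.7 TPM with DMSO and 112 and 86.7 TPM with CBR-5884, so that library 2 was the higher in both conditions.

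Idi1 and Fdps, which turn the product of Mvd into farnesyl diphosphate, both had groups that did not overlap. Idi1 had a log2 fold change of 0.27 (SE 0.10, interval 0.03 to 0.51), from 129 ± 12.1 TPM under DMSO to 156 ± 10.4 TPM under CBR-5884 (SD, n = 2). It shares 18.4% of its 31-base words with the transcribed pseudogene Idi1-ps1, so reads may have been split between them and its level is uncertain. That pseudogene had 88.5 and 72.8 TPM with DMSO and 95.4 and 77.3 TPM with CBR-5884. The sum of both was 226.4 and 193.6 TPM with DMSO and 258.4 and 225.7 TPM with CBR-5884, and these sums overlap. Without DMSO library 4 the log2 fold change of Idi1 was 0.17. Fdps had a log2 fold change of 0.25 (SE 0.11, interval −0.03 to 0.53), which was 0.12 without CBR-5884 library 2 and 0.38 without CBR-5884 library 4. The gap between its DMSO and CBR-5884 groups was small, from 369 TPM in DMSO library 2 to 377 TPM in CBR-5884 library 4. Of its words 24.6% occur in Gm43738, which overlaps Fdps on the same strand and had at most 0.697 TPM. Acat2 shares 43.8% of its words with its neighbour Acat3, which had 0.599 to 1.57 TPM.

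From squalene to cholesterol, 9 of the 11 enzymes had a positive log2 fold change, with a median of 0.11. Fdft1, the squalene synthase, had 133 and 111 TPM with DMSO and 147 and 131 TPM with CBR-5884. Its groups overlapped, and 17.6% of its words occur in Ctsb, which lies over it on the opposite strand. Sqle, the squalene epoxidase, had 130 and 106 TPM against 134 and 131 TPM. Although its groups did not overlap, DMSO library 2 was level with both CBR-5884 libraries and DMSO library 4 stood below; without the latter the log2 fold change was 0.022, against 0.17 with all libraries. Lss, which closes the ring to lanosterol, had the smallest unadjusted p of the members (0.0167, limma), and averaged 118 ± 4.10 TPM under DMSO but 140 ± 2.28 TPM under CBR-5884 (SD, n = 2). The log2 fold change was 0.25 (SE 0.08, interval 0.06 to 0.43), and it was positive within both library numbers, at 0.19 and 0.30.

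Cyp51, the lanosterol demethylase, had 118 and 91.1 TPM with DMSO and 105 and 120 TPM with CBR-5884, with no common order in the 2 library numbers. Msmo1, the C4 methyl oxidase, was nearly level at 162 and 156 TPM against 169 and 152 TPM (log2 fold change 0.02, interval −0.19 to 0.22). Nsdhl, its X-linked partner in removing the C4 methyl groups, had 40.3 and 33.9 TPM against 44.0 and 42.9 TPM, and its groups did not overlap. Its log2 fold change was 0.23, and 0.11 without DMSO library 4. Hsd17b7, the ketoreductase of the same step, had 38.7 and 35.2 TPM against 35.5 and 36.2 TPM. Of these 3 proteins that act together on the C4 carbon, Msmo1 and Hsd17b7 had differences near 0 (0.02 and −0.04). Both turned in sign when certain libraries were left out. Sc5d, the sterol C5 desaturase, had the largest log2 fold change of the members, 0.34 (SE 0.14, interval 0.01 to 0.67). It had 38.3 and 32.0 TPM with DMSO and 41.0 and 48.4 TPM with CBR-5884, and most of the difference came from the libraries numbered 4 (0.58, against 0.10 between those numbered 2). Without DMSO library 4 it was 0.21 and without CBR-5884 library 4 it was 0.22. Dhcr7, the C7 reductase that acts after it, had 152 and 130 TPM against 157 and 141 TPM, with overlapping groups. Ebp spread most, with an interval from −1.10 to 1.30, and 0.0% of its words are shared with other genes. Tm7sf2 shares 10.7% of its words with Vps51, which overlaps it on the same strand and had 67.7 to 80.6 TPM.

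The 5 regulators had differences of either sign, 3 positive and 2 negative. Srebf2, the sterol-directed factor, had 278 TPM in both DMSO libraries and 294 and 315 TPM in CBR-5884 libraries 2 and 4. Its groups did not overlap, and its log2 fold change was 0.13 (interval −0.05 to 0.31), or 0.08 without CBR-5884 library 4. Srebf1 was level, with 111 and 112 TPM against 107 and 118 TPM (0.01, interval −0.20 to 0.21). Srebf2 transcripts exceeded those of Srebf1 in each of the 4 libraries. Scap, the escort of both factors, had 107 TPM in both DMSO libraries and 91.2 and 103 TPM with CBR-5884, and was 1 of the 2 members whose groups did not overlap with CBR-5884 lower (log2 fold change −0.14, interval −0.36 to 0.08). Without CBR-5884 library 2 its value was −0.05, and without CBR-5884 library 4 it was −0.23.

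The Insig pair differed in the sign of its differences. Insig1, a retention protein that SREBP itself induces, averaged 220 ± 9.76 TPM under DMSO but 257 ± 6.34 TPM under CBR-5884 (SD, n = 2). Its log2 fold change was 0.22 (SE 0.07, interval 0.04 to 0.40), and both CBR-5884 values lay above both DMSO values. Insig2, whose mRNA is less dependent on SREBP, had 49.8 and 46.3 TPM against 46.9 and 42.1 TPM, with overlapping groups and a log2 fold change of −0.11 (interval −0.36 to 0.14). The difference between the 2 genes was not tested. Of the transport genes, Tmem97, an endoplasmic reticulum protein of cholesterol handling that binds sigma-2 ligands, averaged 136 ± 0.79 TPM under DMSO but 144 ± 0.32 TPM under CBR-5884 (SD, n = 2). Its groups did not overlap, and the log2 fold change was 0.08 (interval −0.10 to 0.25). Stard4, a soluble sterol carrier, had 67.5 and 80.1 TPM against 79.0 and 73.2 TPM, with overlapping groups.

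In the fatty acid branch, the log2 fold change was above 0 for 6 of the 9 enzymes. The groups did not overlap for 0 higher and 1 lower with CBR-5884, near the background of 13.6% and 17.7%. Acly, which releases cytosolic acetyl-CoA from citrate for both routes, had 352 and 324 TPM with DMSO and 368 and 330 TPM with CBR-5884. Acss2, which makes acetyl-CoA from acetate, had 63.1 and 55.6 TPM against 56.4 and 57.5 TPM. Acaca, the acetyl-CoA carboxylase that commits carbon to fatty acids, had 111 and 100.1 TPM against 98.6 and 99.7 TPM. Both CBR-5884 values of Acaca lay below both DMSO values, by little from DMSO library 4 (log2 fold change −0.09, interval −0.30 to 0.12), and 31.7% of its words occur in the pseudogene Gm5182, which had 5.89 to 7.17 TPM. Leaving out DMSO library 2 gave Acaca a log2 fold change of −0.013, and leaving out DMSO library 4 gave −0.16. Fasn, the synthase itself, had 191 and 193 TPM against 203 and 187 TPM (0.02, interval −0.17 to 0.21). Acly and Fasn thus differed by less than the spread between libraries.

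Among the enzymes that elongate and desaturate fatty acids, Scd1 and Scd2 showed the widest gaps within the DMSO group. Scd1, a stearoyl-CoA desaturase, had 37.2 TPM in DMSO library 2, 22.8 TPM in DMSO library 4 and 37.3 and 36.3 TPM in CBR-5884 libraries 2 and 4. Scd2, its neighbour on chromosome 19 (chr19:44293674-44306864, Scd1 at chr19:44394455-44407879) and the more abundant of both here, had 119 and 79.6 TPM against 117 and 106 TPM. In both genes DMSO library 4 stood below the other three, which were close for Scd1. The log2 fold changes were 0.32 for Scd1 (interval −0.21 to 0.86) and 0.20 for Scd2 (interval −0.25 to 0.65). Without DMSO library 4 they were −0.02 and −0.09. Elovl6, which elongates palmitate, had 42.6 and 37.6 TPM against 36.6 and 42.0 TPM. Fads1 and Fads2, the delta-5 and delta-6 desaturases of polyunsaturated fatty acids, also lay on chromosome 19. Fads1 had 42.7 and 35.0 TPM against 38.8 and 41.5 TPM, and Fads2 had 137 and 120 TPM against 138 and 131 TPM, with DMSO library 4 the lowest in each.

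Set side by side, the median log2 fold change of the sterol enzymes exceeded that of the fatty acid enzymes by 0.09. Within the libraries numbered 2 the medians were 0.14 and −0.02, and within those numbered 4 they were 0.15 and 0.13. The distance between the branches was thus 0.15 for number 2 and 0.03 for number 4. The numbers are not known to pair the libraries, and setting like numbers against each other is only a description. A positive difference within both numbers was found for 12 of 18 sterol enzymes and 3 of 9 fatty acid enzymes, where the background was 23.2% of tested genes. A negative difference within both was found for 0 and 1, where the background was 28.5%. With 2 libraries a side no exact permutation test over libraries can give a two-sided p below 0.33, so the distance between the branches was left as a description.

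**Figure D3:**
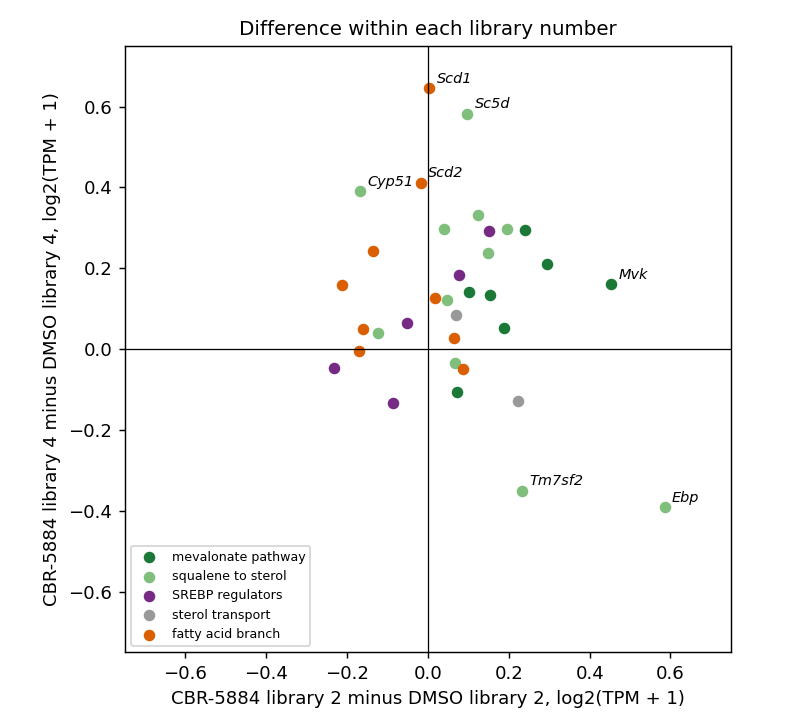
Difference in log2(TPM + 1) between CBR-5884 and DMSO within the libraries numbered 2 (horizontal) and those numbered 4 (vertical), 1 point per gene, coloured by role. The area where both differences are positive holds 12 of 18 sterol enzymes and 3 of 9 fatty acid enzymes; Scd1 and Scd2 differ only between the libraries numbered 4.

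The branch medians of the difference between conditions were no larger than those of the difference between the DMSO libraries. The median of DMSO library 2 minus DMSO library 4 was 0.20 on the log2 scale for the sterol enzymes and 0.18 for the fatty acid enzymes, against 0.02 over all tested genes. DMSO library 2 was the higher for 16 of 18 sterol enzymes and 8 of 9 fatty acid enzymes, where the background was 52.9%. Single genes could go the other way, as for Lss (0.25 between conditions, 0.07 between DMSO libraries) and Insig1 (0.22 and 0.09). Between the CBR-5884 libraries the medians were 0.15 and 0.04, and library 2 was the higher for 14 of 18 and 5 of 9, where the background was 51.5%. Library 2 was the higher in both conditions for 12 of 18 sterol and 4 of 9 fatty acid enzymes, where the background was 30.0%. Without DMSO library 4 the median log2 fold change between conditions was 0.04 for the sterol enzymes and −0.09 for the fatty acid enzymes, with 12 of 18 and 1 of 9 above 0. Without DMSO library 2 these medians were 0.26 and 0.11, and without CBR-5884 library 4 the sterol median was 0.21.

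Summed TPM showed the same order. The 18 sterol enzymes summed to 1992 and 1764 TPM in DMSO libraries 2 and 4 and to 2207 and 2018 TPM in CBR-5884 libraries 2 and 4, so that the lower CBR-5884 sum was just above the higher DMSO sum. The 9 fatty acid enzymes summed to 1096 and 968 TPM against 1095 and 1031 TPM, with overlapping groups. Summed markers of 2 other cell types also differed with the library number, in opposite directions, though single macrophage markers were split with DMSO. Macrophage markers summed to 18.7 and 23.4 TPM in DMSO libraries 2 and 4 and to 13.3 and 30.6 TPM in CBR-5884 libraries 2 and 4, with 3 of 6 higher in DMSO library 2 and 0 of 6 in CBR-5884 library 2. The summed level of the Sertoli cell markers, given above, was higher in library 2 than in library 4 of each condition, for 7 of 9 markers with DMSO and 8 of 9 with CBR-5884, and its range with CBR-5884 lay inside its range with DMSO. Amh, a Sertoli hormone, had 38.5 and 16.6 TPM with DMSO and 29.6 and 26.5 TPM with CBR-5884. The part of either cell type in the levels of the sterol and fatty acid genes was not tested. Among the Leydig cell markers, the summed level in each library was at most 7.0 TPM.

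**Figure D4:**
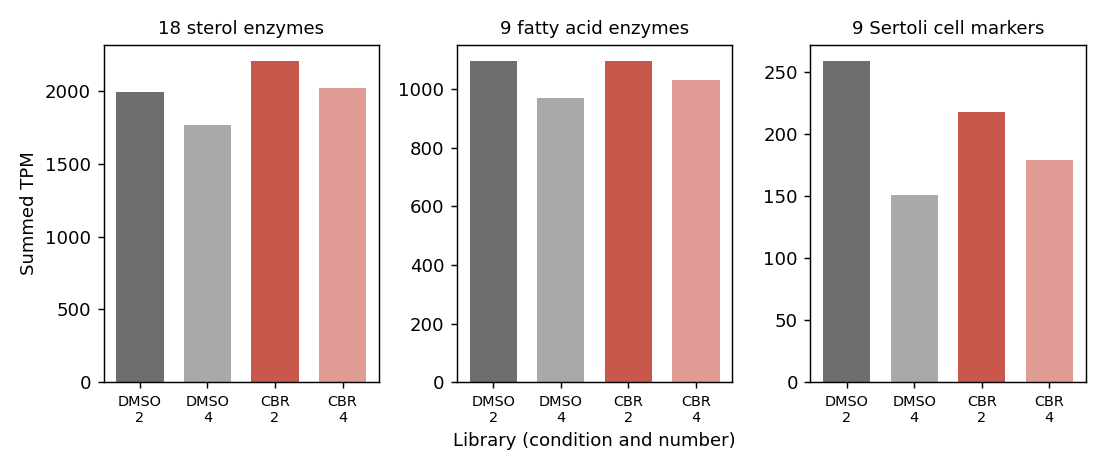
Summed TPM in each library of the 18 sterol enzymes (left), the 9 fatty acid enzymes (middle) and the 9 Sertoli cell markers (right); each panel has its own axis from 0, grey is DMSO, red is CBR-5884, darker is library 2. Sterol sums run from 1764 to 2207 TPM, and in each panel library 2 stands above library 4 of its condition.

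Other genes around the pathway gave no calls (limma, adjusted p under 0.05), and their medians lay near that of all genes. Of 12 genes that carry isoprenoids to proteins, dolichol and ubiquinone, 6 had a positive and 6 a negative log2 fold change (median −0.01). Ggps1, which extends farnesyl to geranylgeranyl diphosphate, had 47.9 and 47.4 TPM with DMSO and 57.0 and 51.8 TPM with CBR-5884, and its groups did not overlap. Fntb, a farnesyltransferase subunit, had 25.8 and 29.6 TPM against 21.8 and 23.9 TPM, lower without overlap. Of 13 genes that carry, cut or degrade SREBP and Insig proteins, 4 were positive and 9 negative (median −0.02). Sec24c, a coat protein of transport vesicles from the endoplasmic reticulum, had 109 and 100.3 TPM against 115 and 123 TPM, and its groups did not overlap.

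Of 17 genes of sterol uptake, storage and efflux, 7 were positive and 10 negative (median −0.04). Their groups did not overlap for 0 higher and 3 lower with CBR-5884, where the background was 13.6% and 17.7%. Gramd1a, which moves sterol from the plasma membrane to the endoplasmic reticulum, had 12.5 and 7.57 TPM against 13.9 and 12.4 TPM, with overlapping groups. Mylip, a ubiquitin ligase of lipoprotein receptors that sterols induce, had 9.16 and 9.84 TPM against 7.67 and 8.28 TPM, lower without overlap. Of 24 further genes of fatty acid synthesis, elongation and activation, 20 were tested, with 8 positive and 12 negative (median −0.03). Elovl4, an elongase of very long chains, had 10.8 and 9.72 TPM with DMSO and 6.99 and 7.12 TPM with CBR-5884, a log2 fold change of −0.48 (SE 0.17; unadjusted p = 0.0315 and adjusted p = 0.998, limma). Its groups did not overlap, and that was the largest difference among genes of this list with a mean of at least 5 TPM. Hacd2, a dehydratase of the elongation cycle, had 90.4 and 76.4 TPM against 65.8 and 73.1 TPM, also lower without overlap.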

How the data were processed

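RNA was measured in 4 libraries, 2 per condition. The tools fastp and kallisto and the build mm10 are named, without versions, per the submitters' processing notes. Per the file headers, the deposited table holds 2 signal values per gene and library, TPM and scaled reads per base, repeated on each transcript line; 1 line per gene and library was kept. Low scaled reads were whole multiples of a gene's lowest value in 26.9% of cases (tolerance 0.05), so reads were not recovered, a count test could not be run and no counting interval is given.

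The 14920 genes whose TPM averaged 1 or more (21168 others were left out) were compared on log2(TPM + 1). The limma-trend fit (limma 3.58.1, R 4.3.3) was two-sided, without covariate and adjusted by Benjamini-Hochberg over all tested genes. A trial of the fit on simulated data used changes larger than the difference of any member. That trial does not show whether differences of the size seen in the members could be called. Fold changes on this scale understate those of low genes. Members and lists were chosen with earlier results of these data known. All members are named; of the other lists, the 2 genes with the largest absolute log2 fold change at a mean TPM of at least 5, plus genes that share sequence with a member; 1 gene of that choice is not reported here. Shared 31-base words were counted over GENCODE M21 transcripts. Alternatives changed the measure, pseudocount, filter, scaling, block and libraries.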

Additional observations from a re-analysis of the deposited data

How the results depend on the processing

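The 6 settings that keep all libraries and can move a member (measure, pseudocount, scaling) gave 204 log2 fold changes, of which 202 kept their direction. The filter, the trend and the replicate block leave a member's fold change as it is by construction. The exceptions were Pmvk with equal library totals (0.0073) and Srebf1 with median-centred libraries (−0.0064). Leaving out 1 library at a time kept the direction in 110 of 136 cases. For members that turned, the values ran from −0.15 to 0.11 for Pmvk, −0.062 to 0.30 for Mvd, −0.076 to 0.30 for Cyp51, −0.21 to 0.094 for Tm7sf2, −0.060 to 0.091 for Msmo1, −0.11 to 0.025 for Hsd17b7, −0.63 to 0.83 for Ebp, −0.029 to 0.20 for Dhcr7, −0.063 to 0.075 for Srebf1 and −0.074 to 0.17 for Stard4. In the fatty acid branch they ran from −0.032 to 0.12 for Acly, −0.15 to 0.035 for Acss2, −0.042 to 0.080 for Fasn, −0.12 to 0.070 for Elovl6, −0.017 to 0.67 for Scd1, −0.088 to 0.48 for Scd2, −0.088 to 0.19 for Fads1 and −0.023 to 0.17 for Fads2. Over the libraries left out, the sterol median ran from 0.043 to 0.26, the fatty acid median from −0.088 to 0.11 and the distance between them from 0.077 to 0.15. Of members that kept their direction, Acat2 ran from 0.015 to 0.23, Fdft1 from 0.064 to 0.32 and Insig2 from −0.19 to −0.033; others that moved by over 1.5 times stand beside their results. The count of fatty acid enzymes above 0 ran from 1 (without DMSO library 4) to 8. The count of sterol enzymes whose groups do not overlap with CBR-5884 higher ran from 8 to 15; these counts were added after seeing the data, and fewer libraries overlap less by construction. With a mean TPM of at least 5, which drops Ebp and Tm7sf2, the distance was 0.11. No member was called under any alternative; with scaled reads 1 gene that is no member was called lower. With the library number as a replicate block, which cannot move the medians of 0.13 and 0.05, 0 members were called, and the smallest adjusted p over all genes was 0.118 (0.0965 without it). Deviations of same-numbered libraries correlated at 0.20 across genes, with only 2 pairs, so the numbers are not taken as pairing. The planned edgeR fit was not run because whole reads were not recovered. Among members the 95% interval reached a median of 0.26 to either side, above most of their differences.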

Other observations

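Fatty acid oxidation, which burns the product of the fatty acid branch in mitochondria, gave no call (limma, adjusted p under 0.05). Of 13 listed genes 12 were tested, with 8 positive and 4 negative log2 fold changes and a median of 0.05. Acaa2, the thiolase of the last step, had 28.5 and 23.2 TPM in DMSO libraries 2 and 4 and 32.8 and 28.5 TPM in CBR-5884 libraries 2 and 4, and its groups barely separated. Acadm, the medium-chain dehydrogenase, had 69.2 and 73.7 TPM against 75.3 and 87.1 TPM, without overlap. Of 8 genes of glycerolipid synthesis 3 were positive and 5 negative, with a median of −0.06. Dgat1, which completes triglycerides, had 70.5 and 71.4 TPM with DMSO and 62.4 and 59.6 TPM with CBR-5884, a log2 fold change of −0.22 (SE 0.08; unadjusted p = 0.0411, adjusted p = 0.998, limma). Agpat1, an acyltransferase of phosphatidic acid synthesis, had 81.6 and 92.1 TPM against 68.0 and 87.5 TPM, with overlapping groups.

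Scd3, a further stearoyl-CoA desaturase that shares 5.84% of the 31-base words of Scd1, followed the library number and not the condition. It had 9.58 TPM in DMSO library 2 and 8.59 TPM in CBR-5884 library 2, but 3.35 and 2.94 TPM in the libraries numbered 4. Ebp was also higher in library 2 of each condition, by 0.49 with DMSO and 1.46 with CBR-5884 on the log2 scale.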
